A study of Caenorhabditis elegans with 2 samples.

Results

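The deposited ChIP-seq peak list of the nuclear hormone receptor NHR-43 held 358 peaks whose summits lay in exons of protein-coding genes on the autosomes, away from promoters. They made up 9.21% of the 3889 thresholded peaks and 11.8% of the 3045 autosomal ones. A member has its summit on chromosome I to V, inside an annotated exon (coding or untranslated) of a protein-coding gene. It lies outside every promoter window, defined here as the 1000 bp before and the 200 bp after the 5′ end that the annotation gives each protein-coding gene, and more than 500 bp from any tRNA gene. Within the thresholded list, the rule uses position and no value of signal, replicate support or sequence words. The authors had already thresholded that list by irreproducible discovery rate (IDR), so every peak compared here had passed their cut. Chromosome V held 85 members, III held 78, IV held 70, II held 67 and I held 58.

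The study immunoprecipitated chromatin from whole hermaphrodite Caenorhabditis elegans at the third larval stage (L3), 36.5 h after synchronisation as starved L1 larvae. The strain, OP477, has the genotype unc-119(tm4063) III; wgIs477, where wgIs477 is an integrated transgene that expresses NHR-43 with a GFP-FLAG tag at its C terminus. There was 1 group of 2 biological replicates, both carrying the unc-119 allele and the transgene, so no comparison between conditions can be made. An anti-GFP antibody was used on sonicated chromatin, and the control libraries were not analysed here. The sources used here do not give the sequence that drives the transgene. Because whole animals were used, binding in fewer cells and weaker binding per cell cannot be told apart.

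Nuclear hormone receptors are transcription factors that bind DNA through a zinc finger domain, and many recognise a short core word such as AGGTCA. Nematodes have a greatly expanded family of them, to which NHR-43 belongs. Transcription factor binding is usually mapped to promoters, introns and the stretches between genes. Exons carry protein code or the untranslated ends of messages, so peaks in them lie on sequence that is under other constraints.

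Sequences are shown first for high coding peaks on chromosomes II to V whose 30 bases at the summit lay wholly in coding sequence. Each run is those 30 bases, centred on the summit, read on the strand of the host gene from the RefSeq copy of the WBcel235 genome, which is the ce11 build of the peak files. Runs were read for the 8 highest such summits, and the 5 highest are shown because none of the 8 runs held any of the 4 words searched, so no letter is capitalised. The intervals are chrIII:835961-835990 (minus strand) for dos-3, chrIII:7950620-7950649 (minus) for let-754, chrII:7773602-7773631 (plus) for C06A8.6, chrIV:9672603-9672632 (minus) for nhr-34 and chrIII:5025493-5025522 (plus) for pcf-11.
dos-3: ctaacaaatactattatcacccggaatccg
let-754: aaaaaacacggagttcatgtggccgttgat
C06A8.6: caatagtgtttacctcgatttcaatccaat
nhr-34: ttggatgtctgatcgttttgggtgtgaaac
pcf-11: taactattctggctgacgacttcaaaaaag

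The next runs are centred on a word rather than on the summit, and were chosen after the values were seen. They show coding peaks that did hold a searched word within 75 bp of the summit, with the word in capitals in either orientation. The GAGA-type repeat GAGAGA lay at chrIII:4096291-4096320 (plus) in C03C10.7, chrII:1239752-1239781 (minus) in lin-42, chrIII:7729735-7729764 (minus) in ZK112.4 and chrII:8745948-8745977 (plus) in mak-1. AGGTCA lay at chrIII:10989900-10989929 (plus) in dhc-4, chrV:11889742-11889771 (minus) in sodh-2 and chrIV:11225761-11225790 (plus) in col-125. These peaks of ZK112.4, mak-1 and dhc-4 had a summit in replicate 2 alone, and that of sodh-2 in replicate 1 alone. The word lay 59 bp from the summit in dhc-4 and 72 bp in sodh-2. Over all coding members, GAGAGA was at 10.9% of summits and in 9.36% of windows centred 500 bp to each side. For AGGTCA both shares were 3.75%.
C03C10.7: ggaacagaggaaGAGAGAtgaagaaattcg
lin-42: tcagcagcgccaTCTCTCggagcaaaaagt
ZK112.4: cgtttcctatcgTCTCTCggctcgactcgg
mak-1: gccaagcgtccaGAGAGAaatgtcctcatg
dhc-4: cctgagaagtggTGACCTacttgccgcctt
sodh-2: tgaaagacgggaAGGTCActtctcgtgttg
col-125: atatctggtccgAGGTCAaccaattgaaat

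The exonic peaks were among the weaker peaks of the list. The signal of a peak is the authors' own value, made from the pooled reads of both replicates, and serves only to rank peaks within a list. Members had a median signal of 84.0 (lowest 61.4, quartiles 70.8 and 114, highest 696). The medians were 100.8 for the 584 intronic peaks, 116 for the 657 intergenic peaks and 124 for the 1330 promoter peaks of the autosomes, classed with the same windows and tRNA distance. Of the members, 28.2% (exact 95% interval 23.6 to 33.2%) were at or above the median signal of the whole list, 111, against 45% of intronic and 55.9% of promoter peaks. Intervals are exact Clopper-Pearson intervals and cover counting error only.

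Most members also had a uniform shape. The most frequent peak width of the list, 324 bp, was the width of 64.0% of members, 50.9% of intronic peaks and 41.0% of promoter peaks. The 229 members of that width had a median signal of 76.4, and the other 129 had a median of 119.3. Peaks of that width were thus weaker among the members, as they were among promoter peaks, where the medians were 79.9 and 182. The peak of that width in ptr-12, at chrI:2587538-2587861, had its summit at its middle, position 2587700. The summit was also at the middle in C05D11.8 (chrIII:6422143-6422466, summit 6422305), wrt-10 (chrII:7533569-7533892, 7533731) and lin-42 (chrII:1240553-1240876, 1240715). Whether the peak caller set the width and summit of such peaks was not tested. Summit distances and word windows depend on the summit's position, and this width was more frequent among members than among intronic or promoter peaks.

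Exonic peaks were found in both replicates less often than intronic or promoter peaks. A thresholded peak was counted as found in a replicate when the relaxed list of that replicate, which holds 29315 peaks for replicate 1 and 30000 for replicate 2, had a summit within 100 bp. Of the 358 members, 208 (58.1%, 52.8 to 63.3%) were found in both replicates, against 78.1% of all nuclear thresholded peaks. The share was 76.2% among intronic peaks (odds ratio 0.434, 95% interval 0.323 to 0.581, two-sided Fisher's exact test with Benjamini-Hochberg adjustment over 8 tests, adjusted p = 3.05e-08). Among promoter peaks it was 83.2% (odds ratio 0.280, 0.215 to 0.364, Fisher's exact test, adjusted p = 3.97e-21). The shares depended on the distance allowed between summits. Within 200 bp, 86.03% of members, 91.3% of intronic and 92.5% of promoter peaks had a summit in both replicates (odds ratios 0.590 and 0.501, Fisher's exact test, adjusted p = 0.0170 and 0.000641). Within 50 bp the shares were 31.6, 48.5 and 63.8% (odds ratios 0.491 and 0.262). With peaks of the most frequent width left out, the odds ratio at 100 bp was 0.163 against promoter peaks. Peaks are not replicates, so these p-values describe where the peaks of this 1 data set lie, and they do not measure how far another experiment would differ.

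A gap was present both above and below the list's median signal. Signals were not matched between the classes within each range, and the part of signal in the gap was not tested. At or above the list's median signal, 71.3% of the 101 members were found in both replicates, against 89.7% of intronic and 93.0% of promoter peaks. Below it, the shares were 52.9% of 257 members, 65.1% and 70.8%. The exonic share was past the test in both ranges against both classes, with odds ratios of 0.285 and 0.187 in the upper range and 0.603 and 0.464 in the lower range (Fisher's exact test, adjusted p at most 0.00589).

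Where 1 replicate lacked a summit within 100 bp, it was more often replicate 1, in the members as in the other classes. Replicate 2 alone supported 104 members, replicate 1 alone supported 34, and 12 had a summit within 100 bp in neither. The corresponding counts for replicate 2 alone and replicate 1 alone were 90 and 40 intronic and 138 and 78 promoter peaks. Members had a partner in replicate 1 in 67.6% of cases and in replicate 2 in 87.2%. Among partners within 100 bp, the median distance from a member's summit was 33 bp (replicate 1) and 14 bp (replicate 2). Across the 208 members found in both the replicate signals had a Spearman's rho of 0.417, against 0.627 over 445 intronic and 0.686 over 1107 promoter peaks, given as a description, since the points share 2 libraries.

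**Figure D1:**
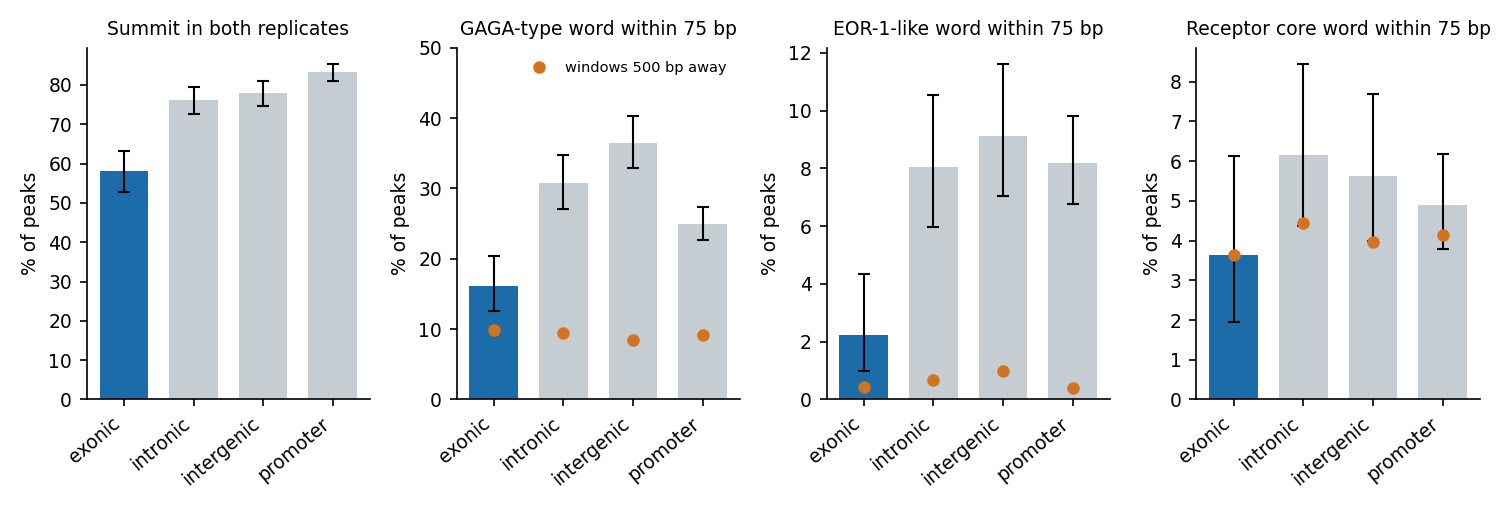
Percent of autosomal peaks of each class (exonic 358, intronic 584, intergenic 657, promoter 1330) with a relaxed summit in both replicates within 100 bp, and with each of 3 words within 75 bp of the summit. Bars are shares with exact 95% intervals, and orange points are the shares of windows centred 500 bp to each side. The exonic bar is the lowest of the 4 in each panel.

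The 20 highest members had signals from 221 to 696. All 20 had a partner in each replicate, and 12 of them lay in untranslated sequence. They were ranked on the pooled reads of both replicates, so their partners are not an independent measure of replicate support. The highest was in the 5′ untranslated exon 1 of F46C5.10 at chrII:8818302-8818725, with a pooled signal of 696, and 295 in replicate 1 and 389 in replicate 2. It was followed by dmd-7, which encodes a DM-domain factor of the doublesex and mab-3 type, at chrV:6247371-6247982 (signal 576, with 243 and 345 in replicates 1 and 2), also in exon 1 ahead of the coding sequence. Both genes had a further thresholded peak in their promoter windows, with signals of 286 and 676.

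The highest peak in coding sequence lay in the last of 10 exons of suro-1, a carboxypeptidase-like gene, at chrI:7872044-7872714. Its signal was 547, and 249 and 316 in replicates 1 and 2. Next among coding peaks were dos-3, a member of the DSL and OSM-11 family of Notch co-ligands, at chrIII:835784-836202 (347, with 90.1 and 218) and F25B5.5 at chrIII:5943736-5944141 (342, with 178 and 167). All 3 of these summits lay in the last exon, at 93.1%, 94.1% and 95.8% of the gene's length from its 5′ end. F25B5.5 was the only gene of the 3 with a thresholded peak in its promoter window, and that peak had a signal of 61.9.

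let-754, an adenylate kinase gene, had a coding peak in exon 5 of 6 at chrIII:7949972-7950993, with a signal of 329 and 137 and 193 in the replicates. C06A8.6 had one in exon 4 of 5 at chrII:7773307-7773849 (286, with 89.4 and 169.5). nhr-34, itself a nuclear hormone receptor gene, had one in exon 2 of 12 at chrIV:9672476-9672762 (283, with 93.5 and 219). That summit lay 52 bp from the 5′ end of an annotated transcript, although it was 27% of the way along the gene.

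pcf-11, whose product acts in cleavage and termination at the 3′ ends of messages, had a coding peak in exon 1 at chrIII:5025391-5025608, with a signal of 258 and 42.8 and 145 in the replicates. It lay 164 bp from a transcript 5′ end, and the promoter window of the gene held another peak with a signal of 97.9. F45D3.4 had a coding peak spanning chrV:12551666-12552831 (221, with 41.2 and 156), and its promoter window held a peak with a signal of 215.

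The remaining members of the highest 20 lay in untranslated exons. In 5′ untranslated sequence these were C34C12.2 (521, with 192 and 297), srh-2, a chemoreceptor gene (392, with 137 and 238), nhx-3, a sodium and proton exchanger gene (301, with 116 and 184), C17C3.1 (298, with 141 and 127), din-1, a corepressor that interacts with the receptor DAF-12 (289, with 93.7 and 129), and T28F4.5 (237, with 92.1 and 124). In 3′ untranslated sequence they were C05D11.8 (505, with 231.8 and 234.6), adal-1, an adenosine deaminase-like gene (247, with 111 in each), algn-12, a mannosyltransferase gene of N-glycosylation (247, with 39.1 and 130.5), and lelo-2 (222, with 86.3 and 129.6). The summits in C17C3.1, nhx-3 and srh-2 lay 7, 93 and 108 bp from the 5′ end of an annotated protein-coding transcript. Of the genes in this paragraph, srh-2 and din-1 had a thresholded peak in their promoter windows, with signals of 171 and 263.

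**Figure D2:**
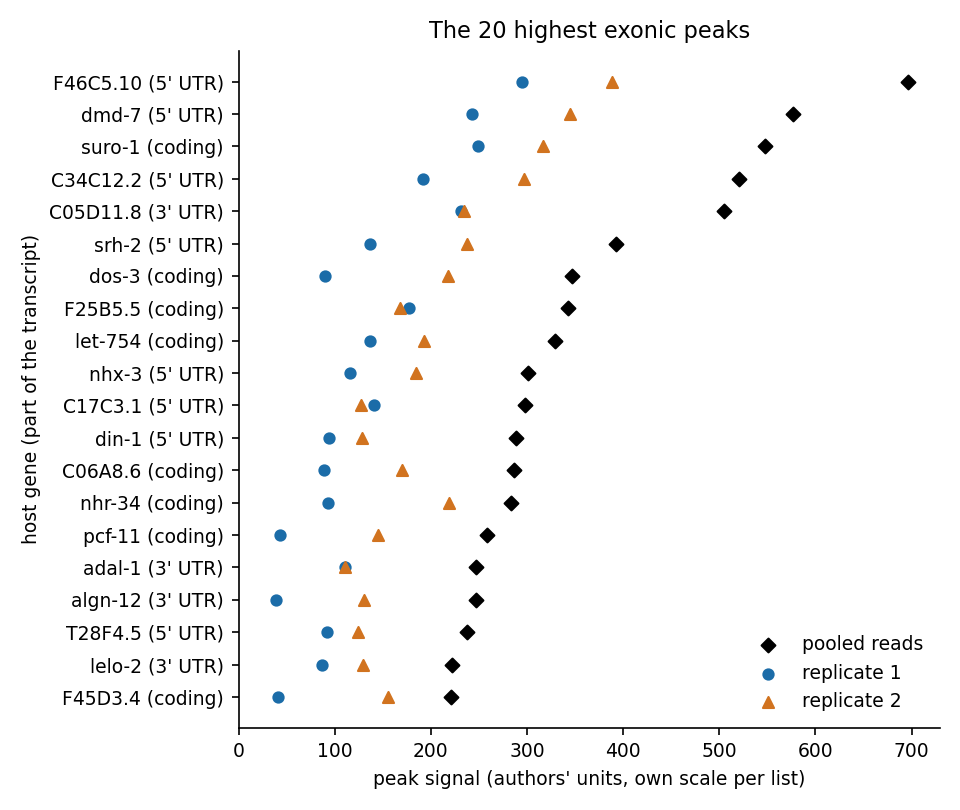
Signal of the 20 highest exonic peaks in the authors' units, one line per peak, named by host gene with the part of its transcript; diamonds are the pooled reads, circles replicate 1 and triangles replicate 2, each on the scale of its own list. F46C5.10 is the highest at 696, and all 20 peaks have both replicate values.

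Members fell unevenly over the parts of the transcript. Coding sequence held 267 of the 358 summits (74.6%, 69.7 to 79.0%), 3′ untranslated sequence 50, 5′ untranslated sequence 34, and exons of transcripts without a coding sequence 7. Of the 358 summits, 6 (1.68%) also lay over a noncoding gene, with piRNA genes not counted. Coding bases made up 87.5% of the 19.3 Mb of autosomal exonic sequence outside the windows. Per megabase there were 15.8 coding peaks, 27.1 peaks in 3′ and 77.4 in 5′ untranslated sequence, against 72.6 in promoter windows, 34 between genes and 23.1 in introns. For all exonic sequence the figure was 18.5 per megabase.

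Peaks in 5′ untranslated exons had the highest signal and replicate support of the 3 larger groups. Their median signal was 111, and 28 of 34 (82.4%, 65.5 to 93.2%) were found in both replicates. The coding members had a median of 81.5 and 55.1% (48.9 to 61.1%) in both, and the 3′ untranslated members a median of 88.9 and 58.0% (43.2 to 71.8%). Of the 5′ untranslated members, 47.1% lay within 200 bp of the 5′ end of some annotated protein-coding transcript, which the windows, set on gene 5′ ends, do not cover. The share was 5.24% among coding members. Differences between these parts were not tested.

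Some members lay near alternative starts. With windows on every transcript 5′ end, 45 of the 358 members (12.6%) would have been promoter peaks. Of those 45, 73.3% were found in both replicates, against 55.9% of the 313 others, and their median signals were 90.3 and 82.8. With every class redrawn on those windows, the odds ratio for support in both replicates was 0.400 against intronic and 0.273 against promoter peaks.

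The GAGA-type word and a word like that bound by EOR-1, a zinc finger protein, were less frequent at exonic summits, taken as 1 class, than elsewhere. The shares differed by part of the transcript, as given below. GAGAGA, searched on both strands within 75 bp of the summit, was present at 58 members (16.2%, 12.5 to 20.4%), against 26.8% of all nuclear thresholded peaks. Intronic peaks had it at 30.8% (odds ratio 0.434, 0.306 to 0.610, Fisher's exact test, adjusted p = 1.19e-06) and promoter peaks at 25% (odds ratio 0.581, 0.420 to 0.795, adjusted p = 0.000534). In windows centred 500 bp to each side it was present in 9.92% of the members' 716 windows, 9.42% of those of intronic peaks and 9.21% of those of promoter peaks. The classes differed at the summit while their flanks were alike within 1 percentage point. The median exon of a member was 406 bp long, so many of the members' flank windows lay outside that exon. Whether exonic sequence itself sets the share was not tested.

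CTGCGTCTC, the EOR-1-like word, was present at 8 members (2.23%, 0.970 to 4.36%), against 6.74% of nuclear peaks. It was present at 8.05% of intronic peaks (odds ratio 0.261, 0.105 to 0.567, Fisher's exact test, adjusted p = 0.000238) and 8.2% of promoter peaks (odds ratio 0.256, 0.107 to 0.530, adjusted p = 3.76e-05). In the members' flanks it was present in 3 of 716 windows (0.419%). Of the 8 members with the word, 6 also held GAGAGA, whose complement TCTCTC can share bases with it. At or above the list's median signal, CTGCGTCTC passed neither comparison by Fisher's exact test (odds ratio 0.309 and adjusted p = 0.0550 against intronic peaks, 0.431 and 0.193 against promoter peaks). GAGAGA against promoter peaks did not pass Fisher's exact test in that range (0.890, adjusted p = 0.819), nor with peaks of the most frequent width left out (0.692, adjusted p = 0.197).

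Both words were at a larger share of untranslated than of coding summits, a difference that was not tested, although 29 of the 58 members with GAGAGA were coding. GAGAGA was at 41.2% (24.6 to 59.3%) of 5′ untranslated summits against 8.82% of their flanks, and at 28.0% (16.2 to 42.5%) of 3′ untranslated summits against 14%. At coding summits it was at 10.9% (7.40 to 15.2%), against 9.36% of their flanks. CTGCGTCTC was at 5 of 34 summits in 5′ untranslated sequence, 2 of 50 in 3′ untranslated sequence and 1 of 267 in coding sequence. The 5′ untranslated members with it were in C17C3.1, egl-30, tent-5, lin-56 and shc-1, and the 3′ untranslated ones in C05D11.8 and eat-16. The coding member was in ptr-12, in the last of 13 exons, and replicate 2 alone supported it.

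**Figure D3:**
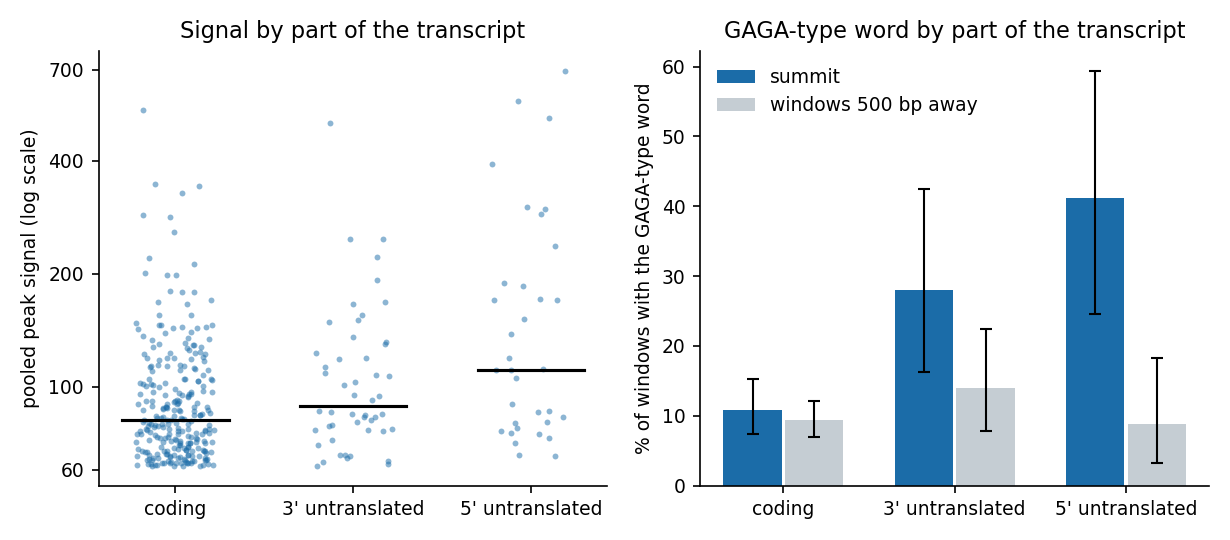
Left, pooled signal (log scale) of each coding, 3′ untranslated and 5′ untranslated member, with the median as a black line; right, percent of windows with the GAGA-type word within 75 bp of the summit (blue) and of centres 500 bp to each side (grey), with exact 95% intervals. The word is at 10.9% of coding summits and 41.2% of 5′ untranslated ones.

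The receptor core word AGGTCA showed no excess at exonic summits. It was present at 13 members (3.63%, 1.95 to 6.13%), the same share as in their flanks (26 of 716 windows), and at 5.71% of all nuclear peaks. Against intronic peaks, at 6.16%, the odds ratio was 0.574 (0.275 to 1.13, Fisher's exact test, adjusted p = 0.112). Against promoter peaks, at 4.89%, it was 0.733 (0.366 to 1.36, Fisher's exact test, adjusted p = 0.395). Both intervals include 1, which does not show that the shares were equal. Ranked by each replicate alone, the 3889 highest peaks gave odds ratios of 0.469 and 0.317 against intronic peaks and 0.498 and 0.414 against promoter peaks, all past the threshold.

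CCGCCC, an Sp1-type word that was described and not tested, was at 3.07% of exonic summits and 2.93% of their flanks, against 7.26% of all nuclear peaks and 10.1% of promoter peaks. Of all members, 286 (79.9%, 75.4 to 83.9%) held none of GAGAGA, CTGCGTCTC and AGGTCA within 75 bp, against 62% of intronic and 67.8% of promoter peaks. No match says only that these letters are not in the window. The G+C content of the members was 42 ± 6.8% (SD, n = 358) within 75 bp of the summit and 38.3 ± 6.65% in the flanks, against 43.5 and 36.5% for intronic peaks. The part of base composition in the word counts was not tested.

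Members lay toward the 3′ ends of their genes. Dividing each host gene into 5 equal segments from its 5′ end, the segments held 32, 38, 54, 84 and 150 members. The last segment thus held 41.9% (36.7 to 47.2%) of the members. Over all autosomal protein-coding genes, the last segment held 27.3% of the exonic bases that lie outside the windows. The first segment held 8.94% of members and 10.9% of those bases, so the windows themselves remove much of it. The shares of bases were not computed for the hosts alone, which were longer than most genes. In all, 152 summits (42.5%) lay in the last exon of the transcript and 47 (13.1%) in exon 1. The median distance from the gene's 5′ end was 2028 bp (208 to 36658 bp), and from its 3′ end 755 bp. The position along the gene is set in part by the rule, so it is given without a test.

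**Figure D4:**
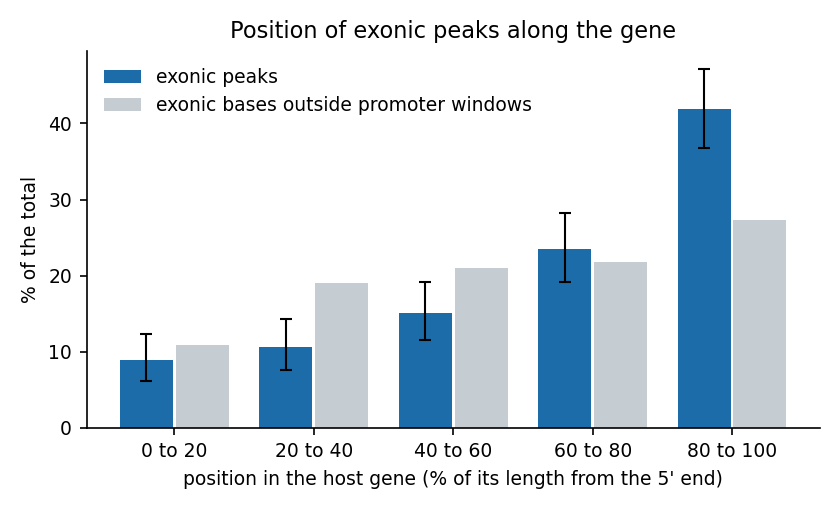
Percent of the 358 exonic peaks (blue, with exact 95% intervals) and of autosomal exonic bases outside promoter windows (grey) in each of 5 equal segments of the gene from its 5′ end. The last segment holds 41.9% of the peaks and 27.3% of the bases. The bases are those of all autosomal protein-coding genes, not of the hosts alone.

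The members lay in 300 host genes, and these often carried promoter peaks too. Of the hosts, 93 (31%, 25.8 to 36.6%) had a thresholded summit in their own promoter window, against 9.92% of all 17242 autosomal protein-coding genes and 23% of the 382 hosts of intronic peaks. The hosts were longer than most genes, with a median of 3162 bp against 1964 bp, and 57 of them (19.0%) also hosted an intronic peak. The part of gene length in these counts was not tested. Another thresholded summit lay within 1000 bp of 39.4% of members, against 30.3% of intronic, 26.0% of intergenic and 18% of promoter peaks. At 39 members (10.9%) it lay within 250 bp, and there the distances ran from 199 to 248 bp. The share was 5.65% of intronic, 6.09% of intergenic and 4.51% of promoter peaks. In those classes too, no such distance was below 190 bp. Among the members, such pairs included summits of a single interval, at suro-1 and icl-1, and of overlapping intervals, at wrt-10.

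Several genes held more than 1 exonic peak. Of the 300 hosts, 261 held 1 member, 28 held 2, 5 held 3, 4 held 4 and 2 held 5, so that 97 members lay in 39 genes with 2 or more. Among these 39 genes 19 (48.7%) had a promoter peak, against 74 of the 261 others (28.4%). Found in both replicates were 56.7% of the 97 members and 58.6% of the others.

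W06H8.6 and tos-1 held 5 members each. In W06H8.6 the signals ran from 82.8 to 192 over 4867 bp, with 2 of 5 in both replicates, 4 of the 5 in 3′ untranslated sequence, and a promoter peak of 328. In tos-1 they ran from 77.1 to 93.9, with 3 of 5 in both replicates, and the promoter peak had 378. In both genes every exonic signal was below that of the promoter peak. The W06H8.6 members with signals of 166 and 123, in 3′ untranslated sequence, also lay over the noncoding RNA gene W06H8.5.

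Of the genes with 4 members, lin-42 encodes the Period-like regulator of developmental timing and is a gene of 19124 bp. Its members had signals of 73.1, 136, 144 and 148, the last at chrII:1241315-1241400 with 6.59 in replicate 1 and 72.6 in replicate 2. In all, 12 thresholded summits lay within lin-42, of which 4 were exonic. The peak of 144, at chrII:1239692-1239841 in exon 5 of 5, held the GAGAGA shown above and had 54.8 and 64.3 in replicates 1 and 2. The other 2 had a summit in replicate 2 alone.

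mak-1, a MAP kinase-activated protein kinase gene, held 4 coding members within 2157 bp, with signals from 90.3 to 168 and 2 of 4 in both replicates. icl-1, the bifunctional glyoxylate cycle enzyme, held 4 with signals from 78.0 to 125, of which 2 summits shared the single interval chrV:723751-725520. sqt-3, a cuticle collagen gene, held 4 within 705 bp, from 62.3 to 78.3, and 1 of them was found in both replicates. None of the members of these 3 genes had the most frequent width.

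Genes with 3 members were nadk-2, a mitochondrial NAD kinase gene (82.3 to 127), pck-2, a phosphoenolpyruvate carboxykinase gene (79.1 to 119.2), aco-2, the mitochondrial aconitase gene (70.7 to 86.4), mml-1, a Mondo-like factor (64.6 to 80.1) and hif-1, the hypoxia-inducible factor (63.0 to 70.8). All 3 members of nadk-2 and of aco-2 were found in both replicates, 2 of mml-1, and 1 each of pck-2 and hif-1. At aco-2 the members spread over 5′ untranslated, coding and 3′ untranslated exons, and its promoter peak of 293 was the highest of these 5 genes. The 3 members of nadk-2, the 3 of aco-2 and the 3 of hif-1 had the most frequent width.

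**Figure D5:**
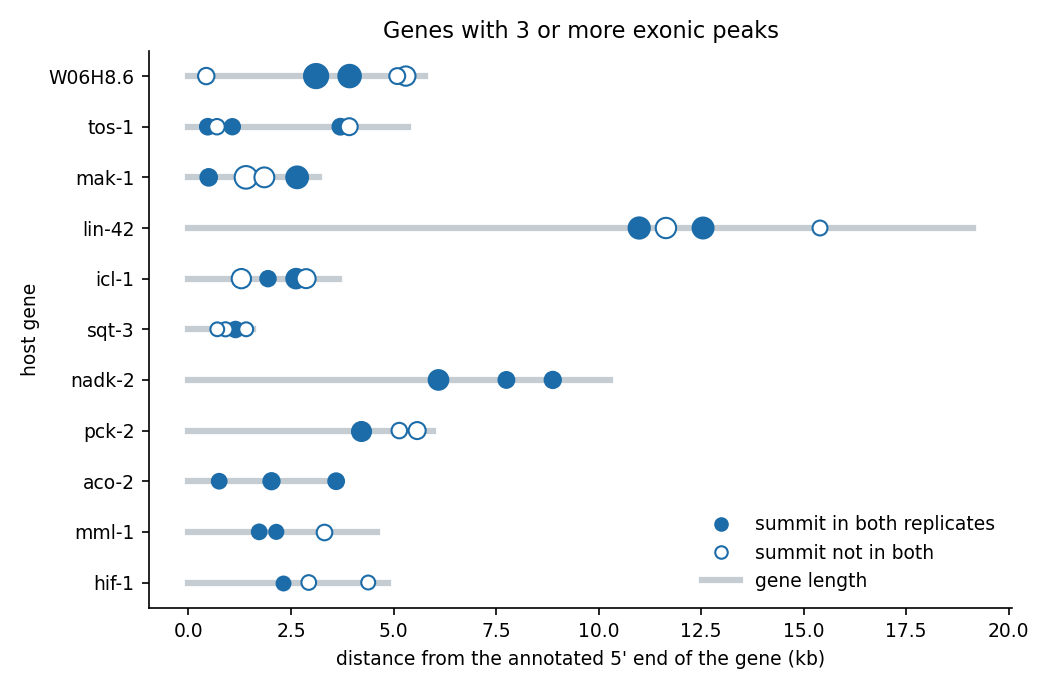
Exonic peaks of the 11 genes with 3 or more of them, at their distance in kb from the annotated 5′ end of the gene; grey lines are gene lengths, the area of a marker is proportional to the pooled signal, and filled markers have a summit in both replicates. In mak-1, icl-1 and sqt-3 the markers crowd together, while in lin-42 they lie 10992 bp or more from the 5′ end.

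The 28 genes with 2 members were dmd-7, suro-1, C05D11.8, dos-3, din-1, T28F4.5, mnk-1, C03C10.7, wrt-10, pho-11, F58D5.5, lin-56, pde-2, dpy-20, nurf-1, acs-19, lpin-1, pgal-1, lrp-1, gln-3, ram-2, F36A2.2, mlt-11, gldi-8, gei-4, adh-1, elo-7 and fasn-1. The first 6 of these are among the hosts of the 20 highest members, and their second members had signals from 62.7 at dos-3 to 168 at C05D11.8. The second summit lay 199 bp from the first in dos-3. In suro-1 it lay 200 bp from the first, within the same interval, chrI:7872044-7872714. Over the other 22 genes the higher signal ran from 68.4 at fasn-1, the fatty acid synthase gene, to 149 at mnk-1, a MAP kinase-interacting kinase gene. Both members were found in both replicates at C03C10.7, lin-56, pde-2, mlt-11, gldi-8 and fasn-1 among those 22, and at lpin-1, gln-3, ram-2, F36A2.2 and adh-1 neither was.

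Runs of members also crossed gene borders, as was seen on looking at their positions. With neighbouring summits at most 1000 bp apart there were 32 runs with 80 members in all, 21 within 1 gene and 11 over 2 or more. The longest covered pck-2 and suro-1 at chrI:7870235-7872714, with 5 members and signals from 79.1 to 547. The suro-1 members of that run shared a single interval. Next to each other on chromosome V, adh-1 and sodh-2, both alcohol dehydrogenase genes, shared a run of 3 members with signals from 63.8 to 129.6, none of which was found in both replicates. zip-2, a bZIP factor, and dos-3 shared a run of 3.

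Glycolysis and TCA cycle genes had the highest share of hosts among the gene lists counted. Lists were built from gene symbols and only counted, against 1.74% of all autosomal protein-coding genes that hosted a member. Among glycolysis and TCA cycle genes 4 of 37 (10.8%) were hosts, with 8 members (median signal 83.9, 5 in both replicates). The highest were pck-2 (119.2), cts-1, the citrate synthase gene (86.6), and aco-2 (86.4), and dlat-1 was the fourth. Lipid metabolism supplied 7 of 113 genes, led by elo-3, a fatty acid elongase gene (100.1), acs-19, an acetyl-CoA synthetase gene (95.7), and cpt-1, a carnitine palmitoyltransferase gene (91.8). Respiratory chain and ATP synthase genes supplied 3 of 61, which were atp-1 (76.4), nduf-7 (66.2) and ucr-2.3 (65.3).

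Cuticle collagens supplied 8 of 146 genes with 11 members (median 76.8, 7 in both replicates). The highest were col-111 (152, in 5′ untranslated sequence), rol-8 (113) and col-125 (111.6), and dpy-5, sqt-3, sqt-1, dpy-13 and lon-3 followed. Apical matrix and molting genes supplied 8 of 123, led by ptr-12, a patched-related gene (155), wrt-10, a hedgehog-related gene (144), and grl-10, a ground-like gene (105). Collagen genes repeat similar coding sequence, so reads shared between family members could make their peaks uncertain, and this was not tested.

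Nuclear hormone receptor genes supplied 7 of 247 (2.83%), with a median signal of 89.9 and 3 members in both replicates. After nhr-34, at 283, came nhr-105 (103), which had no summit within 100 bp in either replicate, and nhr-68 (95.2). The others were nhr-104, nhr-43, nhr-66 and nhr-8, from 75.6 to 89.9.

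In most other lists the share of hosts was near or below the 1.74% of all autosomal protein-coding genes. Of 79 cytosolic ribosomal protein genes, 1 (1.27%), rpl-3, had an exonic peak (70.8, replicate 2 only). Of 61 proteasome and ubiquitin genes, 1 (1.64%), ubq-1, had an exonic peak (118.96, both replicates). Translation factors supplied 1 of 38 genes (2.63%), eef-2 (79.7). Heat shock proteins and chaperones supplied 2 of 66 (3.03%), dnj-29 (64.3) and hsp-60 (63.4). Both of these lists were above 1.74%, on few hosts. Splicing and RNA-binding genes supplied 1 of 64 (1.56%), rbm-5 (101.3). Chromatin and transcription regulators supplied 2 of 173 (1.16%), hda-2 (88.4) and taf-9 (68.4). Of 1331 chemoreceptor genes 7 were hosts (0.526%), led by srh-2 (392), srlf-1 (109) and srx-125 (81.4), of 395 F-box and MATH genes 1, math-33 (132), and of 289 lectin and immune effector genes 1, clec-264 (76.0). No member lay in a gene of the lists of aminoacyl-tRNA synthetases (31 genes), histones (76), muscle structure (32), tubulins (12), basement membrane (13), homeobox (67), ER translocation (37) or germline genes (58), nor in the single vitellogenin gene listed, but at a share of 1.74% lists of these sizes would hold few hosts or none.

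Peaks just outside and just inside the promoter windows are given for comparison, without a test. The summits closest outside a downstream edge lay 8, 14 and 31 bp beyond the windows of nhr-104 (signal 89.9), pigk-1 (78.0) and F21D5.6 (78.8). The closest inside lay at −8, −8 and −18 bp in those of drsh-1 (87.5), sqt-1 (99.1) and coq-3 (70.4). At upstream edges the closest outside lay 2, 11 and 22 bp from the windows of pfd-1 (74.7), dnc-1 (85.9) and dod-18 (71.3), and the closest inside at −15, −27 and −40 bp in those of F38E11.9 (106), ego-1 (147) and H37A05.4 (127). At the upstream edge the 3 inside were higher, with a partner in 1 replicate only, and the 3 outside had both.

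Members within 20 kb of the midpoint of nhr-43 or unc-119 were listed because the transgene array may carry DNA of those regions. There were 2 near nhr-43 and 0 near unc-119. One lay in exon 6 of 8 of nhr-43 itself, at chrIV:11901948-11902271, with a signal of 89.8 and a summit in replicate 2 alone (27.7). The other lay in the last exon of cutl-27, a cuticlin-like gene, at chrIV:11883483-11883806, with a signal of 103 and 13.7 and 56.1 in replicates 1 and 2. Whether transgene copies contributed to these values was not tested.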

How the data were processed

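Peak lists of 2 biological replicates of 1 group were used. Per the notes deposited with the files, the authors made a relaxed list per replicate and from pooled reads, with a shared control alignment, and from these 1 thresholded list; the sources used here do not give the aligner, the peak caller or the read depth. The deposited signal is the authors' own peak value on a scale of its list, so depth behind it is unknown. The −log10 q column deposited by the authors is at a ceiling and was not used. Coordinates are ce11, counted from 1. Classes came from the Ensembl release 115 annotation of WBcel235. Summits within 100 bp counted as shared. Words were searched within 75 bp of summits and of centres 500 bp to each side. Shares were compared by two-sided Fisher's exact tests (scipy 1.17.1; python 3.11.15) with Benjamini-Hochberg adjustment over 8 tests at 0.05, and the script was tested on simulated data. Intervals are at 95%.

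The members, gene lists and words were chosen with earlier results of these data known. The genes named are hosts of the 20 highest members, genes with 2 or more members, the 3 highest members of each list, the 3 peaks to each side of a window edge and members within 20 kb of nhr-43 or unc-119. Names outside this rule (the peaks with CTGCGTCTC, the word-centred sequences, the further collagen, receptor and TCA cycle genes, and runs of neighbouring peaks) were chosen after the values were seen. Of 17 alternatives, 4 were added then (peaks below the median signal, 1 peak per gene, coding peaks only, and widths other than the most frequent). Some sequences are not reported here.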

Additional observations from a re-analysis of the deposited data

How the results depend on the processing

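Each two-sided Fisher's exact test had 15 alternatives, and no odds ratio changed direction. Support in both replicates was past the threshold in the 13 alternatives that measure it, against intronic peaks (odds ratios 0.285 to 0.603) and against promoter peaks (0.163 to 0.501). The other 2 leave out a replicate and so measure a summit in the remaining one, with 0.426 and 0.622 against intronic and 0.256 and 0.463 against promoter peaks. GAGAGA was past it in 15 against intronic peaks and 13 against promoter peaks, and CTGCGTCTC in 14 and 14. At or above the list's median signal, 101 members remained, of which 63.4% were coding. There GAGAGA against promoter peaks had an odds ratio of 0.890 (Fisher's exact test, adjusted p = 0.819), and CTGCGTCTC had 0.309 against intronic peaks (adjusted p = 0.0550) and 0.431 against promoter peaks (adjusted p = 0.193). Without the most frequent width, GAGAGA against promoter peaks had 0.692 (Fisher's exact test, adjusted p = 0.197). Fewer peaks enter these settings, and the cause was not tested. AGGTCA was past the threshold in 2 of 15 in each comparison, which were those that leave out a replicate, with 0.317 to 0.469 against intronic and 0.414 to 0.498 against promoter peaks; these use the 3889 highest peaks of the other replicate, which are not the same peaks. In the other planned settings the members numbered 265 to 470 and the coding share was 72.7 to 78.3%. No paired analysis was possible because there is 1 group. Read depth is unknown. Members with a summit in both replicates rose from 58.1% within 100 bp to 86.03% within 200 bp, so most members counted as lacking one had a summit somewhat farther off.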
